A study of Mus musculus with 4 samples.

Results

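The genes described here are the microRNA loci of the array that gave a measurable signal in the E15 mouse cochlea. They were chosen by symbol and by their measured level: each carries 1 platform symbol of the Mir or Mirlet form, and its brightest probe set had a mean of at least 5 over the 4 arrays on the log2 scale. Of 19938 genes with 1 symbol, 300 were microRNA loci of this form, and 167 of them reached the level. These 167 comprise 163 precursors and 4 host genes, Mir100hg, Mir99ahg, Mir17hg and Mir670hg, which are the longer transcripts from which microRNAs are cut. The mean over all arrays, with both genotypes in it, chose the loci, so their levels are given as a description. A further 61 probe sets with several symbols, at least 1 of which has the Mir form, name no gene and were left out.

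RNA came from whole cochleas at E15. The 2 Meis2 mutant samples (replicates 1 and 2) were Meis2 flox/flox; Pax2 Cre/+ embryos, in which a Cre recombinase under Pax2 regulatory sequences, active from the early otic placode and vesicle onward, removes the floxed allele of the transcription factor gene Meis2. The 2 wild-type samples (replicates 2 and 3) are labelled as wild type with no further allele named. Neither the labels nor the study's methods say whether the samples of a genotype came from separate animals or from pools, so the p-values measure only the spread between these arrays, which may be technical.

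MicroRNAs are short RNAs that guide Argonaute proteins to messenger RNAs, which are then translated less or decay faster. A primary transcript is cut by Drosha and DGCR8 to a hairpin precursor, exported by exportin 5 and cut by Dicer, and the mature strand pairs with its targets chiefly through its seed, the bases from 2 to 8. In the inner ear, microRNAs are known to be needed for the differentiation and survival of hair cells and ganglion neurons. The probe sets lie on the hairpins, so a signal can come from the hairpin, the mature strand in it or a longer transcript that contains it, and these cannot be told apart here. The study's methods name the RNeasy Mini Kit for isolating the RNA and do not say whether RNA as short as a hairpin was kept. No value given here is therefore a measure of a mature microRNA, and the source of the signal was not tested. Many loci also exist in near-identical copies, whose probes can share signal.

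The mature strands below are those on which the results turn, because loci with the same seed stood on opposite sides or because the locus had one of the largest differences. Capitals mark the seed. Sequences were taken from RefSeq (GRCm38.p6), in which 148 of the 167 loci had an entry.
miR-181b-5p: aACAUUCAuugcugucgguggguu
miR-181a-5p: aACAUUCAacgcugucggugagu
miR-181c-5p: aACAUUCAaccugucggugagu
miR-181d-5p: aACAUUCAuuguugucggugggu
miR-99a-5p: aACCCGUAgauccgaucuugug
miR-99b-5p: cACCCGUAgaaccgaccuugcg
let-7c-5p: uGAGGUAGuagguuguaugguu
let-7e-5p: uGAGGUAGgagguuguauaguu
miR-218-5p: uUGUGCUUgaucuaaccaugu
miR-204-5p: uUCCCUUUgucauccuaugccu
miR-211-5p: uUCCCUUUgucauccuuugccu
miR-26a-5p: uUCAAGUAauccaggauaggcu
miR-26b-5p: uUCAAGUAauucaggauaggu
miR-341-3p: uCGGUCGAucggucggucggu
miR-668-3p: uGUCACUCggcucggcccacuacc
miR-134-5p: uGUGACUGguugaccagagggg
miR-127-3p: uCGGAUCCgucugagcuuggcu
The 4 mature miR-181 strands share their whole seed, ACAUUCA, and miR-181b-5p is encoded by both Mir181b-2 (chr2:38853830-38853918, plus strand) and Mir181b-1 (chr1:137966639-137966718, plus strand). Mir181c and Mir181d lie close together on the minus strand of chromosome 8 (chr8:84178885-84178945 and chr8:84178716-84178787). The strands of miR-341, miR-668, miR-134 and miR-127 come from 1 region of chromosome 12, described further on.

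Over all 35556 probe sets, Pearson's r was 0.996 between the mutant arrays, 0.993 between the wild-type arrays and 0.966 to 0.971 between genotypes. Meis2 itself had signals of 9.61 and 9.80 in the Meis2 mutant arrays and 9.64 and 9.38 in the wild-type arrays, a difference of 0.19 (SE 0.13, adjusted p = 0.284 in limma). The groups overlapped, and the sources used here do not say whether the Meis2 probe set lies in the deleted part, so this does not check the labels. Xist, the RNA of the inactive X chromosome, was at 11.83 and 11.84 in the mutant arrays and at 5.54 and 11.51 in the wild-type arrays, so wild-type replicate 2 stood apart. Of the 12 microRNA loci on the X chromosome, 3 were higher and 1 was lower in mutants. Over the whole array 37.3% of probe sets passed the test used below, 21.6% as higher and 15.7% as lower. Among markers, 4 of 6 ganglion neuron genes were lower and none higher, and 11 of 16 skeletal muscle genes were higher and none lower. The higher and lower counts were 3 and 0 of 9 for cartilage, 3 and 0 of 6 for hair cells, 3 and 1 of 8 for the prosensory region and duct, 3 and 1 of 5 for erythroid cells, 3 and 0 of 7 for hindbrain and other brain regions, 1 and 0 of 7 for macrophages and 0 and 0 of 8 for endothelium. The mean marker signal was 8.17 and 8.15 in mutants against 8.97 and 8.93 in wild type for ganglion neurons, 6.70 and 7.02 against 6.17 and 6.40 for muscle, and 11.67 and 11.70 against 11.49 and 11.47 for cartilage. In whole-cochlea RNA, fewer cells of a type and less RNA per cell cannot be told apart, and the part of cell composition in the differences below was not tested.

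More microRNA loci were higher than lower in Meis2 mutant cochleas. In limma, with p-values adjusted by the Benjamini-Hochberg method across the whole array and called at 0.05, 61 of the 167 loci were higher in mutants, 8 were lower and 98 were not called. Among all probe sets 37.3% passed in either direction, 21.6% as higher and 15.7% as lower, while among the microRNA loci 36.5% were higher and 4.79% were lower. Over all levels the share of higher loci was thus above the background and the share of lower loci below it. The median difference of the loci, mutant minus wild type, was 0.30 on the log2 scale (middle range 0.10 to 0.49), against 0.11 over all probe sets, and 138 loci had a positive difference. The genotypes did not overlap at 137 loci (82.0%), against 76.1% of all probe sets and 79.2% of those with a mean of at least 5. Of the probe sets with a mean of at least 5, 25.8% were higher and 19.2% lower, with a median difference of 0.12. Among the 133 microRNA loci under the level 14 were higher, none was lower and the median difference was 0.12. Array medians were 6.73 and 6.72 in mutants against 6.63 and 6.65 in wild type. With each array centered on its own median, 45 loci were higher, 11 were lower and the median was 0.22. Of all probe sets 14.2% were then higher and 18.1% lower, with a median of 0.03. Leaving out Meis2 mutant replicate 1 gave 23 higher and 5 lower loci, leaving out replicate 2 gave 19 and 2, leaving out wild-type replicate 2 gave 45 and 4, and leaving out wild-type replicate 3 gave 32 and 11. The background moved in these fits too, to 7.20%, 5.62%, 15.4% and 14.3% of all probe sets higher and to 9.15%, 7.35%, 15.3% and 13.1% lower.

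**Figure D1:**
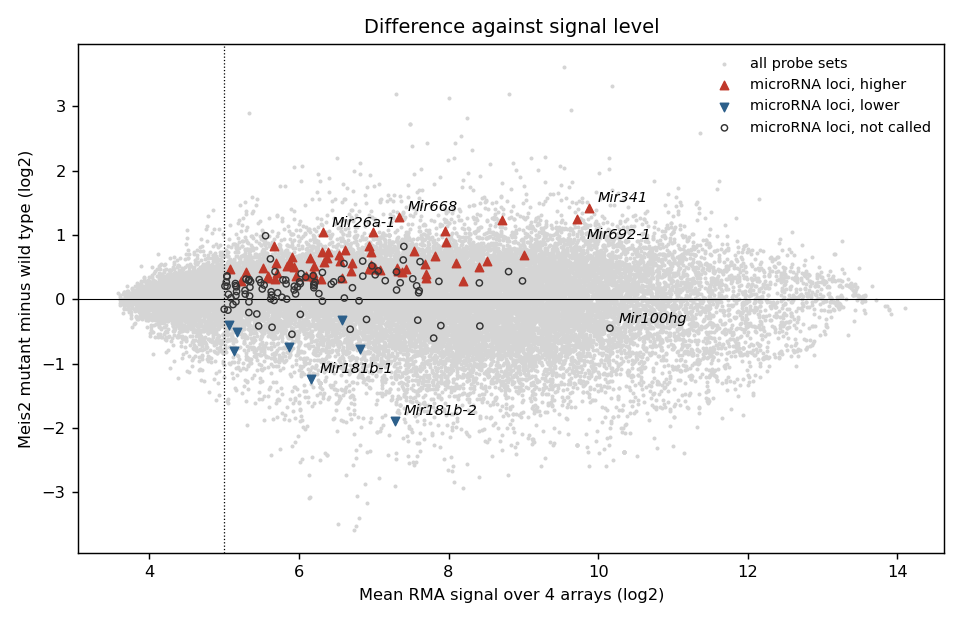
Mean RMA signal over the 4 arrays (x axis, log2) against the difference of Meis2 mutant minus wild type (y axis, log2) for all 35556 probe sets in gray, with the 167 microRNA loci as red triangles (61 higher), blue triangles (8 lower) and open circles (98 not called). The dotted line marks the level of 5 by which loci were chosen, and most of the loci to its right lie above 0.

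The loci were dim on the whole, with a median level of 6.20 against 7.53 for all probe sets with a mean of at least 5. The brightest 6 were Mir100hg at 10.16, Mir341 at 9.88, Mir692-1 at 9.72, Mir346 at 9.01, Mir505 at 8.99 and Mir667 at 8.80. Just inside the level stood Mir713 at 5.001, Mir124a-3 at 5.01 and Mir542 at 5.03, and just outside it Mir98 at 4.98, Mir710 at 4.99 and Mir154 at 4.9997. The shares of called loci were set beside those of probe sets of like level. Between 5 and 6, 21.4% of 70 loci and 21.6% of all probe sets were higher, and 5.71% and 5.10% were lower, so both shares were close to those of all probe sets. Between 6 and 7 the shares were 46.2% of 52 loci and 29.2% of all, between 7 and 8 they were 43.8% of 32 loci and 26.0% of all, and from 8 to 11 they were 61.5% of only 13 loci and 26.8% of all. The lower shares in these 3 ranges were 5.77% of loci and 11.3% of all, 3.13% and 21.7%, and 0% and 28.8%. More higher and fewer lower loci than among all probe sets were thus found in the 3 ranges above a mean of 6 and not between 5 and 6. GC content of the hairpin moved with the difference: higher loci had a median of 56.6% GC (49 hairpins), lower loci 45.2% (8 hairpins) and loci not called 51.1% (81 hairpins). Across the 138 loci with a hairpin sequence, which share the same 4 arrays and are not independent, Pearson's r between GC content and the difference was 0.41 and Spearman's rho was 0.42, and r between GC content and the level was 0.43. The part of base composition in the differences was not tested.

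Among the loci called higher with no overlap between genotypes, the 12 with the largest differences were Mir341, Mir668, Mir692-1, Mir134, Mir665, Mir431, Mir26a-1, Mir455, Mir300, Mir150, Mir127 and Mir187, with differences of 1.42 to 0.75, and Mir369, at 0.99, and Mir485, at 0.82, lay in this range but were not called (adjusted p = 0.0829 and 0.0821). Mir341 had 10.72 and 10.46 in mutants against 9.39 and 8.95 in wild type, a difference of 1.42 (SE 0.18, 2.68-fold, adjusted p = 0.00658 in limma). Both mutant arrays were above both wild-type arrays by more than the arrays of a genotype differed from each other. Mir692-1, on chromosome 17, had 10.31 and 10.38 in mutants against 9.15 and 9.04 in wild type, a difference of 1.25 (SE 0.09, adjusted p = 0.0028). Mir150, a microRNA of lymphocytes, had 7.32 and 7.38 in mutants against 6.52 and 6.53 in wild type, a difference of 0.82 (SE 0.08, adjusted p = 0.00402). At both loci the arrays of a genotype lay close together beside the gap between genotypes. Mir187 had 7.80 and 8.03 in mutants against 7.16 and 7.17 in wild type, a difference of 0.75 (adjusted p = 0.00841). Both of its mutant arrays were high. Of these 12, Mir187, Mir150, Mir26a-1, Mir431, Mir692-1, Mir668 and Mir341 kept their call in all 11 alternative fits, while Mir300, at 6.44 and 5.73 in mutants against 5.27 and 5.25 in wild type (difference 0.83, adjusted p = 0.0491), lost it in 6.

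**Figure D2:**
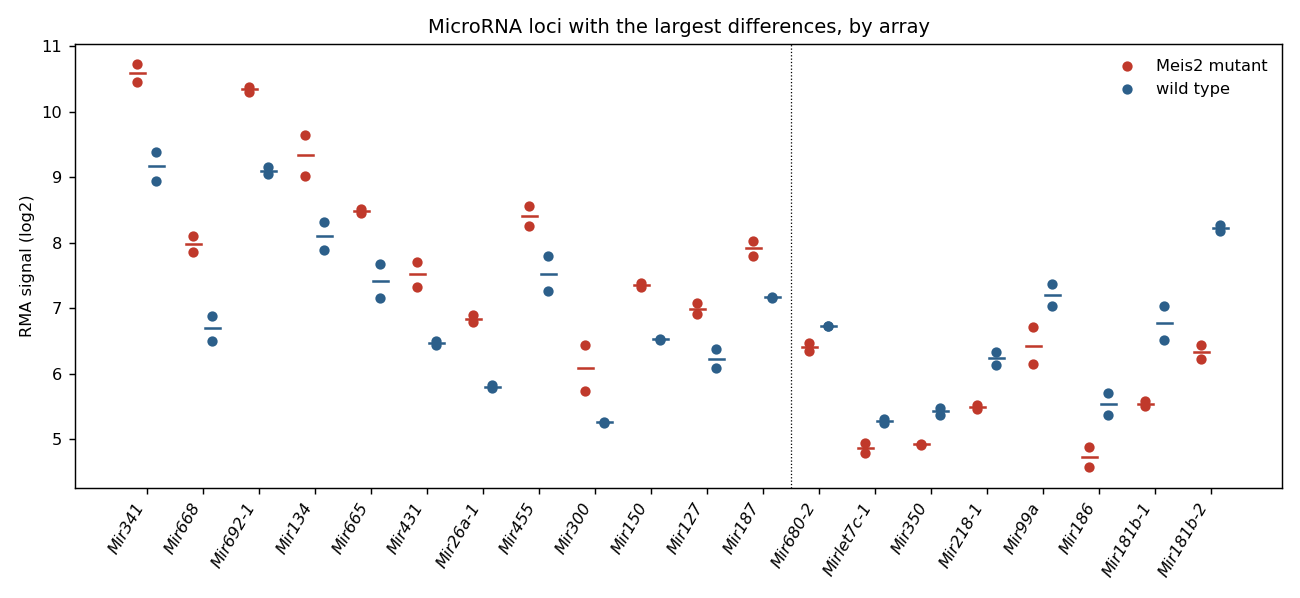
RMA signal (y axis, log2) of each array for the 12 microRNA loci with the largest differences among those called higher with no overlap and, right of the dotted line, the 8 lower loci, with Meis2 mutant arrays in red left of wild-type arrays in blue and short bars at the mean of 2 arrays. The absence of overlap was a condition of their choice, and the widest gap is that of Mir181b-2, near 6.3 in mutants and 8.2 in wild type.

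Fewer loci were lower, and the largest difference of all was among them. Mir181b-2 had 6.44 and 6.23 in mutants against 8.27 and 8.18 in wild type, a difference of -1.89 (SE 0.11, 3.71-fold lower, adjusted p = 0.00259). Mir181b-1, which encodes the same mature strand on another chromosome, had 5.50 and 5.58 in mutants against 7.03 and 6.52 in wild type, a difference of -1.23 (SE 0.18, adjusted p = 0.00896). At both loci each mutant array was below each wild-type array by at least the spread between arrays, and both calls held in all 11 alternative fits. Mir218-1, a microRNA known for its abundance in motor neurons, had 5.53 and 5.46 in mutants against 6.13 and 6.34 in wild type, a difference of -0.74 (SE 0.10, adjusted p = 0.00819). Mir186 had 4.88 and 4.57 in mutants against 5.70 and 5.37 in wild type (difference -0.81, adjusted p = 0.0206), and Mir350 had 4.91 and 4.93 against 5.48 and 5.38 (difference -0.51, adjusted p = 0.012). In mutants both loci were below the level of 5, so these are dim signals that reached it only through the wild-type arrays. The other lower loci were Mir99a, Mirlet7c-1 and Mir680-2, which lost their calls in 4, 4 and 5 of the 11 alternative fits.

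Of 6 loci of the miR-181 family on the array 5 reached the level, and these stood on both sides. The other, Mir181a-1, had a mean of 4.28 and a difference of -0.16 that did not pass (adjusted p = 0.206 in limma). Mir181c had 8.24 and 8.06 in mutants against 7.50 and 7.46 in wild type, a difference of 0.67 (SE 0.10, adjusted p = 0.00895). Mir181d, its neighbor on chromosome 8, had 7.57 and 7.78 in mutants against 7.23 and 7.17 in wild type, a difference of 0.47 (SE 0.10, adjusted p = 0.0244). Both were higher, while both miR-181b loci were lower, and the seed is the same in all of them. Mir181a-2, which lies beside Mir181b-2 on chromosome 2 (chr2:38852735-38852810, plus strand), had 5.67 and 5.60 in mutants against 6.42 and 5.94 in wild type, a difference of -0.54 that did not pass (adjusted p = 0.0613). Mir181b-2 and Mir181a-2 lie within the span of the long noncoding RNA Nr6a1os on the same strand, whose own signal is not analysed here. Without Meis2 mutant replicate 2 or without either wild-type array, 1 of the 2 higher calls was lost, and the 2 lower calls stayed in each of these fits. The differences between family members were not tested.

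Loci that carry miR-99, let-7 and miR-125 lie together in 3 clusters, which do not hold every let-7 locus, and each cluster was read separately. In the cluster of chromosome 16, Mir99a (chr16:77598936-77599000, plus strand) had 6.71 and 6.15 in mutants against 7.37 and 7.04 in wild type, a difference of -0.77 (SE 0.22, adjusted p = 0.0483). Mirlet7c-1 beside it was below the level of 5 in both mutant arrays and reached it only through the wild-type arrays. It had 4.79 and 4.94 in mutants against 5.24 and 5.30 in wild type, a difference of -0.40 (SE 0.09, adjusted p = 0.0277). Both were lower, and each of these calls was lost when wild-type replicate 2 was left out, among other settings. The host of this cluster, Mir99ahg, had a difference of -0.41 for the brightest of its probe sets (adjusted p = 0.0625), while another of its 4 probe sets was lower, with -0.85 (adjusted p = 0.0112). The remaining probe sets of Mir99ahg had differences of -0.49 (adjusted p = 0.0674 in limma) and 0.13 (adjusted p = 0.236) and were not called. In the cluster of chromosome 9, the host Mir100hg had 10.11 and 9.76 in mutants against 10.50 and 10.26 in wild type (difference -0.45, adjusted p = 0.0781), and Mir125b-1 within it had a difference of -0.42 (adjusted p = 0.0516), neither past the threshold. In the cluster of chromosome 17, Mir125a was higher at 7.22 and 7.23 in mutants against 6.67 and 6.82 in wild type, a difference of 0.48 (SE 0.09, adjusted p = 0.0165). Its neighbors Mirlet7e and Mir99b had differences of 0.61 (adjusted p = 0.0802) and 0.13 (adjusted p = 0.413). Over the whole let-7 family 4 of 10 loci reached the level, of which 1 was lower, none was higher and the median difference was -0.03. These counts depend on the level: Mir98, a family locus just under it at 4.98, was higher by 0.39 (adjusted p = 0.0222 in limma). None of the other family loci under the level was called. The lower call was lost in each fit that left out an array, and without wild-type replicate 2 there was 1 higher locus and no lower one. The 4 host gene members gave no call, and Mir17hg and Mir670hg had differences of -0.44 and 0.27.

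Other loci with a common seed were read side by side, and the differences between them were not tested either. Mir211, within the span of Trpm1, had 7.25 and 7.42 in mutants against 6.68 and 6.51 in wild type, a difference of 0.74 (SE 0.11, adjusted p = 0.00896). Mir204, within Trpm3 and known from the retina, choroid plexus and inner ear, had 6.20 and 6.70 in mutants against 7.23 and 6.60 in wild type, a difference of -0.47 that did not pass (adjusted p = 0.219), and its genotypes overlapped. Mir195a and Mir497, of the miR-15 family, were higher by 0.74 (adjusted p = 0.00612) and 0.36 (adjusted p = 0.0275), while Mir15a had a difference of -0.60 (adjusted p = 0.1). Both miR-26 loci were higher: Mir26a-1 had 6.79 and 6.89 in mutants against 5.82 and 5.78 in wild type (difference 1.04, SE 0.08, adjusted p = 0.00322), and Mir26b differed by 0.65 (adjusted p = 0.00781). These calls stayed in each fit that left out an array. Mir218-2, which encodes the same mature strand as the lower Mir218-1, had a difference of 0.29 (adjusted p = 0.0663).

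**Figure D3:**
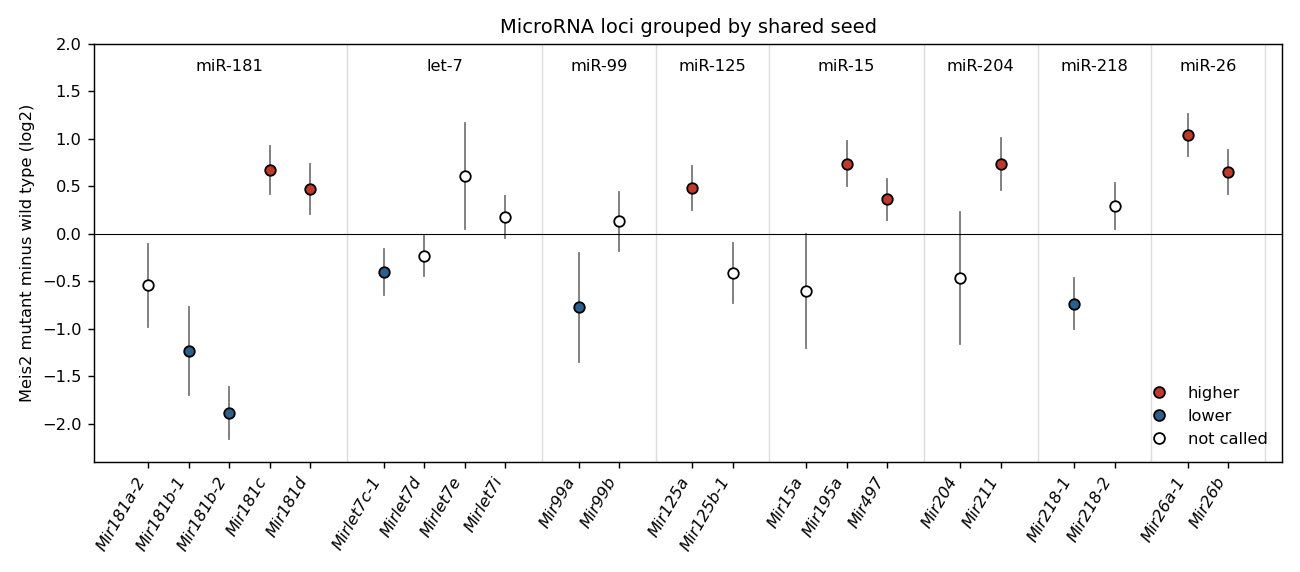
Difference of Meis2 mutant minus wild type (y axis, log2) with 95% confidence intervals from limma as vertical lines, for loci grouped by the seed they share, with red points for loci called higher, blue for lower and white for not called. The groups were chosen after their values were seen; the miR-181 loci spread from -1.89 to 0.67, while both miR-26 loci lie above 0.

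The largest group of loci from 1 place was the imprinted Dlk1-Dio3 region of chromosome 12, where a run of microRNAs, long noncoding RNAs and snoRNAs is expressed from the maternal chromosome. Of its 40 loci on the array 27 reached the level, and 12 of these were higher, none was lower and 26 had a positive difference. The higher share was 44.4%, against 35% of the loci outside the region and 21.6% of all probe sets. These backgrounds are not matched for level, and the median level of the 27 loci was 6.98. With a mean of 6 to 7, 46.2% of microRNA loci and 29.2% of all probe sets were higher. With a mean of 7 to 8, the shares were 43.8% and 26.0%. The share in the region was thus near that of microRNA loci of like level. Their median difference was 0.55, against 0.28 for the 140 loci outside the region and 0.11 for all probe sets. Beside Mir341, the higher loci included Mir668, at 8.10 and 7.85 in mutants against 6.89 and 6.50 in wild type (difference 1.28, SE 0.17, adjusted p = 0.00673). Mir134, known to act at neuronal dendrites, had 9.65 and 9.02 in mutants against 8.31 and 7.89 in wild type (difference 1.24, SE 0.25, adjusted p = 0.0206). Mir431 had 7.71 and 7.32 in mutants against 6.49 and 6.44 in wild type (difference 1.05, adjusted p = 0.00821), and Mir127, which lies opposite the retrotransposon-derived gene Rtl1, had 7.07 and 6.91 against 6.37 and 6.08 (difference 0.77, adjusted p = 0.0126). At all of these loci Meis2 mutant replicate 1 was the higher mutant array. Over the 27 loci the median difference was 0.42 without Meis2 mutant replicate 1 and 0.81 without replicate 2. It was 0.71 without wild-type replicate 2 and 0.46 without wild-type replicate 3. Over all probe sets the medians of these 4 fits were 0.11, 0.11, 0.096 and 0.13. Each of these fits called fewer of the 27 loci than the main fit did, and the fewest were called without Meis2 mutant replicate 1. The share of higher calls over all probe sets fell in each of them as well.

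**Figure D4:**
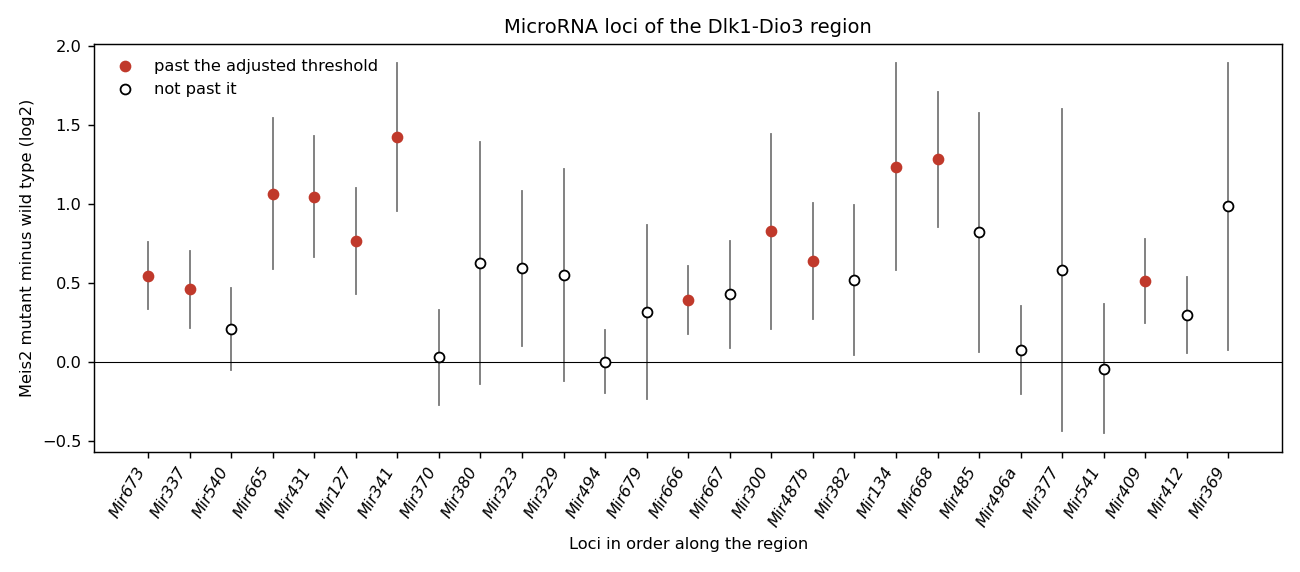
Difference of Meis2 mutant minus wild type (y axis, log2) for the 27 microRNA loci of the Dlk1-Dio3 region in their order along the chromosome, with 95% confidence intervals from limma as vertical lines. Red points mark the 12 loci past the adjusted threshold, and 26 of the 27 points lie above 0.

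The other genes of this region did not all go one way. Meg3, the maternally expressed long noncoding RNA at the head of the region, had 12.003 and 11.94 in mutants against 11.45 and 10.95 in wild type (difference 0.77, adjusted p = 0.0274). Rian, the snoRNA host in whose span Mir341 and Mir370 lie, had 7.47 and 6.86 in mutants against 8.04 and 7.93 in wild type (difference -0.82, adjusted p = 0.0367). Mir341 was thus higher and its host lower, while Mir370 had a difference of 0.03 (adjusted p = 0.849). Of the paternally expressed genes, Dlk1 was higher by 0.62 (adjusted p = 0.00805) and Rtl1 by 0.86 (adjusted p = 0.0126), and Dio3, at a level of 5.36, had a difference of 0.05 (adjusted p = 0.804).

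Some families are known for 1 cell type. Of the cartilage microRNAs, Mir455 had 8.56 and 8.25 in mutants against 7.79 and 7.25 in wild type (difference 0.89, SE 0.21, adjusted p = 0.0306), and Mir140 had 7.38 and 7.08 against 6.73 and 6.68 (difference 0.53, SE 0.12, adjusted p = 0.0287). Of the cartilage genes 3 of 9 were higher, against 21.6% of all probe sets, and their median difference was 0.13, near the 0.11 of all. Both microRNA loci were higher, 1 was called without Meis2 mutant replicate 2 or without wild-type replicate 2, and neither was called without Meis2 mutant replicate 1 or without wild-type replicate 3. Of 21 loci of neuronal microRNAs 17 reached the level, of which 3 (17.6%) were higher, 1 was lower and the median difference was 0.23, so the share of higher loci was no larger than the 21.6% of all probe sets. The higher and lower counts were 2 and 1 without Meis2 mutant replicate 1, 0 and 0 without replicate 2, 1 and 1 without wild-type replicate 2, and 0 and 1 without wild-type replicate 3. The higher ones were Mir219a-1 and Mir219a-2, known from oligodendrocytes, with 0.42 (adjusted p = 0.0163) and 0.50 (adjusted p = 0.0242), and Mir128-2 with 0.31 (adjusted p = 0.0348). Over the same arrays 4 of 6 ganglion neuron genes were lower, and the part of neuron content in these values was not tested.

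Other families gave few or no members. None of the 3 loci of the miR-183 cluster of hair cells, the 7 loci of skeletal and heart muscle microRNAs and the 2 erythroid loci reached the level of 5, although 11 of 16 muscle genes were higher in mutants. Of 6 loci of the miR-30 family 2 reached it, and their median difference of 0.03 became -0.05 with arrays centered on their medians. Of 14 loci of the miR-17-92 cluster and its paralogs 6 reached it, with Mir25 higher by 0.47 (adjusted p = 0.0177). Of the miR-200 family of epithelia 3 of 4 did, with Mir200c higher by 0.37 (adjusted p = 0.0285). The call of Mir200c was lost in each fit that left out an array, and no locus of the miR-17-92 group was called higher when Meis2 mutant replicate 1, Meis2 mutant replicate 2 or wild-type replicate 3 was left out.

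A locus within a gene can be transcribed with it. RefSeq placed 72 of the 167 loci within the span of a gene on the same strand, and for 58 of them, in 47 genes, the host had a probe set of its own. Of the 25 higher loci with a measured host, the host was higher for 12, lower for 4 and not called for 9. Clcn5 and Dalrd3 were each counted for more than 1 of these loci. Of all probe sets 21.6% were higher and 15.7% lower. Of those with a mean of 8 to 11, 26.8% were higher and 28.8% lower. Of the 3 lower loci with one, the host was lower for 2 and not called for 1. Among 30 loci not called, the hosts were higher for 7, lower for 4 and not called for 19. Mir26a-1 was higher with Ctdspl (0.58, adjusted p = 0.0106), a phosphatase gene, Mir455 with the collagen gene Col27a1 (0.58, adjusted p = 0.0137) and Mir140 with the ubiquitin ligase gene Wwp2 (0.64, adjusted p = 0.0113). Mir186 was lower with Zranb2, a splicing factor gene at 6.44 and 6.38 in mutants against 7.84 and 7.75 in wild type (difference -1.39, adjusted p = 0.00267), and Mir350 with the centrosomal gene Cep170 (-0.51, adjusted p = 0.01). Opposite calls were given for Mir341 and Rian, Mir361 and Chm (-0.73), Mir107 and Pank1 (-0.92), and Mir342 and Evl (-0.38). Mir218-1 was lower while its host Slit2, an axon guidance gene, had a difference of 0.14 (adjusted p = 0.303). Its paralog Mir218-2 was not called while its host Slit3 was higher by 1.15 (adjusted p = 0.00281). Across the 58 pairs, several of which share a host, Pearson's r between the differences was 0.31 and Spearman's rho was 0.39.

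**Figure D5:**
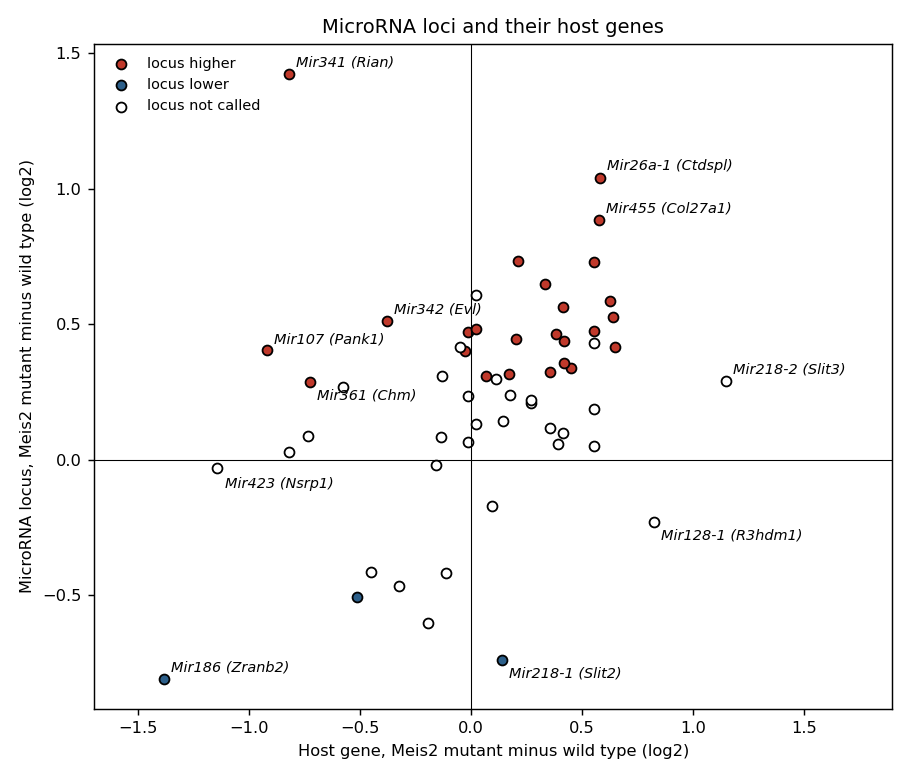
Difference of the host gene (x axis, log2) against that of the microRNA locus in it (y axis, log2), both Meis2 mutant minus wild type, for 58 loci, colored by the call of the locus (red higher, blue lower, white not called). Mir341 lies alone at the upper left, above 0 while its host Rian is below 0, and the 4 higher loci left of the vertical line beyond -0.3 are those with a lower host.

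Genes that make, export and act with microRNAs were called in both directions at shares near those of probe sets of like level. Of 52 listed genes 50 were measured, of which 14 (28%) were higher and 17 (34%) lower in mutants, with a median difference of -0.04 (0.04 after a repeated quantile normalization). Of all probe sets with a mean of 8 to 11, 26.8% were higher and 28.8% lower, and the median level of the listed genes was 9.60. With arrays centered on their medians 7 were higher and 17 lower. Leaving out Meis2 mutant replicate 1 gave 4 and 10, leaving out replicate 2 gave 3 and 6, leaving out wild-type replicate 2 gave 11 and 15, and leaving out wild-type replicate 3 gave 6 and 15. Of the enzymes of the first cut, Drosha had 9.79 and 9.73 in mutants against 9.53 and 9.46 in wild type (difference 0.27, adjusted p = 0.0558), and its partner Dgcr8 had a difference of 0.29 (adjusted p = 0.0715). Neither passed, and the helicase Ddx17 of the same complex was lower, with a difference of -0.49 (adjusted p = 0.0115). Hnrnpa2b1, which reads marked primary transcripts, was lowest of the list at 9.68 and 9.67 in mutants against 11.27 and 11.25 in wild type (difference -1.59, SE 0.08, adjusted p = 0.00244). The exporter Xpo5 was higher by 0.41 (adjusted p = 0.0309), while Dicer1 had a difference of -0.15 (adjusted p = 0.279). Of the partners of Dicer, Tarbp2 was higher by 0.72 (adjusted p = 0.0109) and Prkra lower, with -0.91 (adjusted p = 0.00789).

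Among the effectors, Ago2, the Argonaute that cuts its targets, was higher by 0.45 (adjusted p = 0.0174) and Tnrc6c, a scaffold of the silencing complex, by 1.05 (SE 0.12, adjusted p = 0.00495). The helicase gene Mov10 was higher by 0.86 (adjusted p = 0.0059) and the deadenylase gene Pan2 by 0.88 (adjusted p = 0.00476). Fmr1, an RNA-binding protein gene, was lower, with a difference of -0.77 (adjusted p = 0.00479), the exonuclease gene Xrn1 was at -0.65 (adjusted p = 0.00721) and the chaperone gene Hsp90aa1 at -0.60, both lower (adjusted p = 0.00781). The regulators of let-7 precursors went both ways. Lin28b, at a dim mean of 5.71, was lower, with -0.52 (adjusted p = 0.0214). The uridylyltransferase genes Tut4 (-0.84, SE 0.09, adjusted p = 0.00451) and Tut7 (-0.43, adjusted p = 0.0205) and Khsrp (-0.56, adjusted p = 0.0105) were also lower. Dis3l2, an exonuclease gene of uridylated precursors, was higher by 0.38 (adjusted p = 0.0389). Lin28a had a difference of 0.34 that did not pass (adjusted p = 0.0913).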

How the data were processed

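RNA of whole E15 cochleas was amplified, labeled and measured on Affymetrix arrays of the type Mouse Gene 1.0 ST. The deposited values are log2 signals, which the authors obtained with the robust multi-array average (RMA) method: background correction, normalization within and between arrays and 1 signal per probe set. The processing notes of the submitters name RMA and the genome build mm8. Normalization between arrays would reduce a shift of most genes in one direction. The deposited arrays still differed in their medians, with 6.73 and 6.72 in mutants against 6.63 and 6.65 in wild type. This offset between genotypes enters every difference given from the main fit. The scanner files were not used here.

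All 35556 probe sets were fitted with limma 3.58.1 in R 4.3.3 (lmFit and eBayes, 2-sided, Benjamini-Hochberg adjustment, threshold 0.05) on the deposited log2 values of the 2 mutant and 2 wild-type arrays, with no covariate and no filter. The number of arrays limits the precision: there were 2 residual degrees of freedom, to which the prior added 2.91. The brightest probe set by the mean over all arrays stands for a gene with several. Symbols came from the platform's annotation. Mature strands, hairpins and positions came from RefSeq (GRCm38.p6), and hosts are genes whose RefSeq span holds the locus on the same strand. Overlap means that the ranges of the 2 genotypes share values. The methods of the study name significance analysis of microarrays, which was not run here because its null distribution comes from relabelings of 4 arrays.

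The microRNA loci, families, pathway and marker lists were chosen with earlier results of these data known. Several family lists were corrected or added after the values were seen, among them miR-181, miR-26 and miR-23, miR-24 and miR-27, and the groups by shared seed were also chosen then. The loci named are the 12 called without overlap whose difference was largest, separately for higher and lower loci, the 6 brightest, the 3 on each side of the level, the host gene members and hosts of named loci, up to 4 loci of each family and up to 8 pathway genes with the smallest p. Other loci and genes named, such as the enzymes and partners of microRNA processing, the pairs with opposite calls and the genes of the Dlk1-Dio3 region, were chosen after their values were seen. Alternatives were median scaling, repeated quantile normalization, other priors, array weights, filters on probe sets, other levels and thresholds, averaging the probe sets of a gene and leaving out each array. Code was tested on simulated data, whose spread was reset after a first run recovered few of the changed probe sets. The outcome is not given here, so it lends no weight to the results.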

Additional observations from a re-analysis of the deposited data

How the results depend on the processing

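Microarrays of 2 samples a genotype, and dim precursor signals, limit every count given. Leaving out 1 array at a time gave 19 to 45 higher loci and 2 to 11 lower loci, with median differences of 0.2931 to 0.3003. The fewest calls came without Meis2 mutant replicate 2. A genotype left with 1 array was assumed to vary like the other. The main values were 61, 8 and 0.3047. Median scaling lowered the median difference to 0.2205 and repeated quantile normalization to 0.2121. A threshold of 0.1 gave 92 higher and 14 lower loci. The share of all probe sets at that threshold is not given here, so these counts cannot be set against a background. With only the probe sets of 1 symbol in the fit, 88 loci were higher and 14 lower. Of all probe sets in that fit, 30.4% were higher and 20.5% lower. Averaging the probe sets of a gene gave 88 higher and 14 lower of 166 loci, and the share over all genes is not given here. A level of at least 6 left 97 loci, of which 46 were higher and 4 lower, with a median of 0.4013. The shares of all probe sets by range of level are given above. A level of at least 4 gave a median of 0.2089. Of the 12 higher and 8 lower loci plotted by array, all chosen for being called, 9 kept their call in all 11 alternative fits and none changed direction. Most fragile were Mir300, called in 5 of the 11 with adjusted p of 0.0156 to 0.118 in limma, and Mir680-2, called in 6 with 0.0214 to 0.192. No paired analysis was possible because the genotypes share only 1 replicate number.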
